A study of Mus musculus with 18 samples.

Results

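TWEAK (TNF-like weak inducer of apoptosis) was applied to cultured mouse renal epithelial cells for 6 h or 24 h, and the question was for which genes and functions the response differed between the times. The difference was measured as an interaction, that is, the log2 fold change of TWEAK against vehicle at 24 h minus the same quantity at 6 h. The 12 samples that enter it were 3 with vehicle (DMSO) at 6 h, 3 with TWEAK at 100 ng/mL at 6 h, 3 with vehicle at 24 h and 3 with TWEAK at 100 ng/mL at 24 h, out of 18 samples in the series. The other 6 samples received TWEAK at 100 ng/mL together with 3 μM NIK SMI1, an inhibitor of NF-κB inducing kinase (NIK), at the same times. All samples were primary renal tubulointerstitial epithelial cells of C57BL/6 mice from a commercial supplier, labelled mRPTEC. Expression was measured by RNASeq as reads counted in the exons of each gene, and 15521 genes with more than 10 reads in at least 4 of the 18 samples were tested with edgeR's quasi-likelihood test, with p-values adjusted by the Benjamini-Hochberg method over all of them. A gene was called at an adjusted p below 0.05. Levels are given as CPM, the read count scaled to a common library size after TMM normalization, and are compared within a gene only.

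TWEAK is a cytokine of the TNF family that binds the receptor Fn14. The receptor recruits TRAF adaptor proteins and activates the canonical NF-κB pathway, in which IκB proteins are degraded, and the non-canonical pathway, in which NIK accumulates and the p100 precursor is processed to p52. The canonical pathway is known to act early and to induce its own inhibitors, whereas the non-canonical pathway is slower and lasting. In the kidney, tubular epithelial cells are a known target of TWEAK and respond with chemokines and with changes in proliferation and differentiation.

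The 12 libraries held between 19711692 and 51956444 reads on genes, so that 3 reads, the limit that a count of 0 allows, corresponded to 0.0577 to 0.152 CPM by library size. Values below that limit are given as measured and carry no level of their own. Within each group, every pair of samples differed by more than counting noise, and the labels do not say whether the 3 replicates of a treatment were separate cultures, so p-values measure the spread between these samples. Of the 7 epithelial markers, Krt8, Krt18, Cldn4, Cdh1 and Epcam were abundant, whereas 5 of 7 proximal tubule markers were at or below 1 CPM in every library, with Slc34a1 and Slc22a6 at or below 0.0431 CPM. Likewise 6 of 7 markers of the distal nephron and collecting duct were at or below 1 CPM in every library, and Umod, the uromodulin gene, was at 0 in all of them. The proximal tubule markers Slc5a2 and Cubn were higher, at 6.04 to 8.27 CPM and 1.98 to 4.52 CPM, and the distal marker Gata3 was at 0.198 to 2.25 CPM. As most markers of either segment were at or below 1 CPM, the cells are called renal epithelial cells here. The summed level of 8 leukocyte markers was 19.1 to 21.8 CPM in the 9 samples other than TWEAK at 24 h, where it was 23.8 to 25.4 CPM, and the defining markers Lyz2 and Cd3e were at or near 0 throughout. Of these markers, 6 were at or below 1 CPM in every library. Of the 2 tested, Csf1r was called with a higher TWEAK effect at 24 h (interaction 0.49, edgeR adjusted p = 0.0227). That call was lost without any 1 of 6 libraries (highest edgeR adjusted p = 0.0905). Cd68 was not called (interaction -0.11). The part of leukocyte RNA in the results was not tested. Transcripts of pancreatic islets were present at a low level. The sum of 14 islet markers was 20.1 to 27.1 CPM in the vehicle samples, 22.9 to 42.9 CPM with TWEAK at 6 h (highest in sample 1) and 0.769 to 19.8 CPM with TWEAK at 24 h (lowest in sample 2, next in sample 3). Of the 10 islet markers tested, Ins2, Iapp and Chga were called in the interaction with a fall that grew. They are part of the counts over all genes below and are not named as responses. The part of this RNA in other results was not tested. Counts are therefore also given without these 3 TWEAK libraries (sample 1 at 6 h, samples 2 and 3 at 24 h), which leaves 1 sample with TWEAK at 24 h whose spread is taken from the other groups.

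The TWEAK effect was larger at 24 h than at 6 h for most of the called genes. At 6 h, 1816 genes (11.7%) were higher and 1870 genes (12.0%) lower with TWEAK than with vehicle. At 24 h, 2843 genes (18.3%) were higher and 3211 genes (20.7%) lower. In the interaction itself 1383 genes were called, 8.91% of those tested. The effect of TWEAK was higher at 24 h for 503 genes (3.24%) and lower at 24 h for 880 genes (5.67%). The median interaction over all tested genes was -0.006 on the log2 scale. Without the 3 libraries above, 171 genes were called higher and 411 lower.

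The called genes were sorted by the effect at each time. The effect grew upward for 427 genes (2.75% of those tested): these were higher with TWEAK at 24 h, and 215 of them were already higher at 6 h. It grew downward for 750 genes (4.83%), of which 380 were already lower at 6 h. It faded from a rise for 95 genes (0.612%) and from a fall for 59 genes (0.38%). It turned from a rise at 6 h to a fall at 24 h for 28 genes (0.18%) and from a fall to a rise for 14 genes (0.0902%). A further 10 genes (0.0644%) were called in the interaction and at neither time. Since these classes were made from the same contrasts, their medians are a description. So are the shares of gene lists below, whose members were chosen with earlier results of these data known. The median TWEAK effect of the genes that grew upward was 0.14 at 6 h and 0.50 at 24 h (log2), and that of the genes that grew downward was -0.16 and -0.63. The 59 genes that faded from a fall became 37 when sample 1 of TWEAK at 6 h was left out and 39 without sample 1 of vehicle at 24 h. With the same 3 libraries left out, the classes held 145, 360, 43, 18, 8 and 7 genes in the same order.

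**Figure D1:**
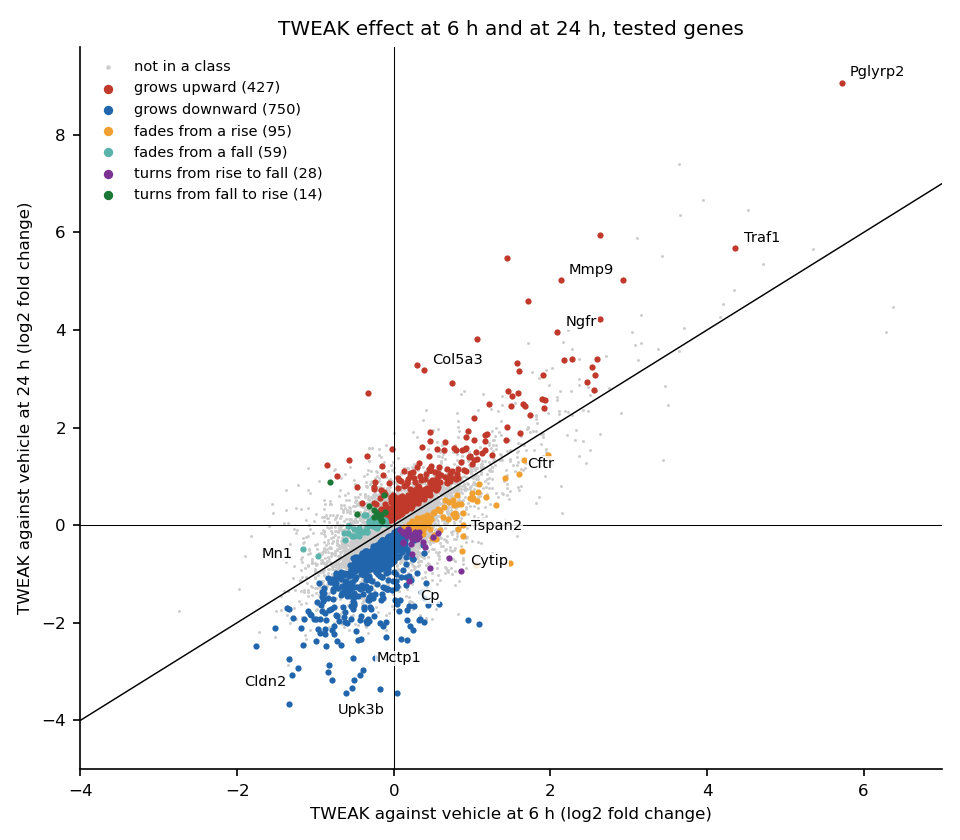
TWEAK against vehicle at 6 h (x axis) and at 24 h (y axis) as log2 fold changes, with 1 point for each of the 15521 tested genes, coloured by class. Points above the diagonal have a higher effect at 24 h; the 427 genes that grew upward spread above it to the right, and the 750 that grew downward lie below it, most of them below the horizontal axis.

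A few genes of the canonical NF-κB pathway and its feedback inhibitors had a rise that grew. Of 18 tested members of the canonical pathway and its feedback inhibitors, 13 were higher with TWEAK at 6 h and 14 at 24 h, and 4 had a higher effect at 24 h (22.2%, against 3.24% of all genes), with none lower. The other 14 members were not called. The median interaction of the list was 0.03, with 10 members above 0 and 8 below. Traf1, a TRAF adaptor that is itself an NF-κB target, was at 1.64, 1.14 and 0.839 CPM with vehicle and 23, 23.7 and 24.2 CPM with TWEAK at 6 h. At 24 h it was at 1.03, 1.39 and 0.952 CPM with vehicle and 53.7, 57.9 and 56.8 CPM with TWEAK. The vehicle level stayed near 1 CPM at both times while the TWEAK level rose 2.38-fold, and the groups did not overlap at either time (interaction 1.31 ± 0.22 SE on the log2 scale, edgeR adjusted p = 0.000122). Nfkbie, which encodes the inhibitor IκBε, rose from 11.5, 12.2 and 11.3 to 65.7, 61.9 and 66.9 CPM at 6 h and from 9.32, 10.9 and 10.7 to 77.4, 81.1 and 72.8 CPM at 24 h (interaction 0.46 ± 0.10, edgeR adjusted p = 0.00257). For Nfkbia (IκBα) the effect was 2.56 at 6 h and 2.77 at 24 h, and for Tnip1, a partner of the deubiquitinase A20, it was 0.71 and 0.91. Both of these calls were thin. The call of Tnip1 was lost without sample 2 of vehicle at 6 h or sample 1 of TWEAK at 6 h (highest edgeR adjusted p = 0.0686), and that of Nfkbia without any 1 of 9 libraries (highest edgeR adjusted p = 0.134), namely all 3 of vehicle at 6 h and samples 1 and 2 of each other group. The list then held 2 called members without either of the libraries named for Tnip1, and 2 without the 3 libraries with departing islet reads. Of 10 tested members of the non-canonical pathway, Relb, the partner of p52, was the 1 called. Its level fell between the times with vehicle, from 43.6, 43.5 and 42.4 to 30.9, 27.7 and 31.8 CPM, and was 75.3, 75 and 78.5 CPM at 6 h and 71.3, 67.9 and 63.9 CPM at 24 h with TWEAK (interaction 0.34 ± 0.07, edgeR adjusted p = 0.00101).

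The κB consensus, the motif bound by NF-κB dimers, was searched on both strands in the 250 bases upstream of every annotated start of a gene (RefSeq, GRCm38.p6), for which 11228 of the 15521 tested genes matched by identifier. It was present for 620 of them (5.52%), and for 8 of 15 matched members of the canonical list (53.3%). Among the classes it was present for 20 of 318 matched genes that grew upward (6.29%), 30 of 561 that grew downward (5.35%), 11 of 70 that faded from a rise (15.7%) and 1 of 42 that faded from a fall (2.38%). A match is a description of the sequence and not a measured binding site. Matches also lay upstream of genes with a lower effect at 24 h, among them Tlr3, Upk3b and Elf3. The stretches of 30 bases around a match are shown for 5 genes whose rise grew, to place the motif beside their values, with the match in capitals and read in the direction of the gene. They lie at chr12:55492657-55492686 (minus strand) for Nfkbia, chr17:45555584-45555613 (plus) for Nfkbie, chr11:54962979-54963008 (minus) for Tnip1, chr3:107760604-107760633 (minus) for Csf1 and chr2:122147551-122147580 (plus) for B2m. In Tnip1 further matches overlap the one shown.
Nfkbia: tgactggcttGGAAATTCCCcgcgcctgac
Nfkbie: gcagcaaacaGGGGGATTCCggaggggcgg
Tnip1: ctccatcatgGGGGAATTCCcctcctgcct
Csf1: gggccttgagGGAAAGTCCCtaggggccag
B2m: actgaaaatgGGAAAGTCCCtttgtaacct

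The gelatinase Mmp9, which degrades denatured collagen, was among the genes with the largest growth of a rise. Its level was 3.69, 4.59 and 3.20 CPM with vehicle and 16.6, 15.8 and 17.5 CPM with TWEAK at 6 h. At 24 h it was 1.83, 1.88 and 1.81 CPM with vehicle and 59.7, 59.3 and 60.0 CPM with TWEAK. The level fell with vehicle and rose with TWEAK between the times, and the effect went from 2.13 to 5.02 (interaction 2.88 ± 0.15, edgeR adjusted p = 6.02e-13). Of 26 tested metalloproteinases, ADAMs and their inhibitors, 5 had a higher and 5 a lower effect at 24 h (19.2% each, against 3.24% and 5.67% of all genes). Timp1, an inhibitor of Mmp9, was among the higher ones (interaction 0.37 ± 0.09, edgeR adjusted p = 0.00844), and the aggrecanase Adamts5 had a lower effect (interaction -0.60 ± 0.06, edgeR adjusted p = 3.53e-08). Without the 3 libraries, 1 member was higher and 4 lower. Col5a3, a chain of type V collagen, was at 0.638 to 1.29 CPM in the 6 samples at 6 h, and at 24 h at 0.320, 0.496 and 0.714 CPM with vehicle and 4.40, 4.40 and 3.93 CPM with TWEAK (interaction 2.79 ± 0.36, edgeR adjusted p = 4.18e-06). Of 31 tested collagen genes it was 1 of 2 with a higher effect (6.45%, against 3.24% of all genes), and the 1 that remained without sample 1 of vehicle at 24 h. A lower effect was called for 2 collagen genes (6.45%, near the 5.67% of all genes).

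Pglyrp2, a peptidoglycan recognition protein that cleaves bacterial cell walls, was at 5.13, 4.45 and 4.41 CPM with TWEAK at 6 h and at 15.9, 13.8 and 14.2 CPM at 24 h. With vehicle it was at 0.134, 0.0544 and 0.078 CPM at 6 h and at 0.0457, 0 and 0 CPM at 24 h. The vehicle samples at 24 h held 2 reads in all against 1637 with TWEAK, a ratio of 610 per total read count with an exact 95% interval of 169 to 5040 that covers counting error only. The interaction passed the test (edgeR adjusted p = 0.0126), except without sample 1 of vehicle at 6 h (edgeR adjusted p = 0.0535) and with libraries thinned to the same depth (edgeR adjusted p = 0.0882). Its fitted size, 3.35 ± 0.87, rests on the few vehicle reads and went from 2.99 to 6.24 when 1 library at a time was left out, the highest without sample 1 of vehicle at 24 h. The predicted gene Gm32605 held 2 reads with vehicle and 139 with TWEAK at 24 h, a ratio of 51.8 (exact 95% interval 14.1 to 432, counting error only). Zbtb7c, a zinc finger factor, was at 0.354, 0.449 and 0.548 CPM with TWEAK at 6 h and at 1.98, 2.60 and 2.41 CPM at 24 h, against at most 0.156 CPM in any vehicle sample (interaction 2.89 ± 0.73, edgeR adjusted p = 0.01, and 0.0594 without sample 3 of vehicle at 6 h).

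Ngfr, the low-affinity neurotrophin receptor of the TNF receptor family, was at 4.36, 4.49 and 4.64 CPM with vehicle and 19.5, 17.4 and 20.7 CPM with TWEAK at 6 h. At 24 h it was at 4.57, 4.71 and 5.76 CPM with vehicle and 78.4, 75.8 and 76.4 CPM with TWEAK. Its vehicle levels were alike at the times, and the TWEAK level rose 4.01-fold between them (interaction 1.88 ± 0.12, edgeR adjusted p = 1.56e-11). Of 24 tested TNF family ligands and receptors it was the 1 with a higher effect (4.17%, near the 3.24% of all genes; 2 without sample 1 of vehicle at 6 h or of TWEAK at 24 h). A lower effect was called for 2 members (8.33%, against 5.67% of all genes), and for 1 without sample 3 of vehicle or sample 2 of TWEAK at 6 h, or samples 1 or 2 of vehicle or 2 or 3 of TWEAK at 24 h. Of 25 tested cytokine receptors, 4 had a higher effect (16.0%, against 3.24% of all genes). A lower one was called for 2 (8.0%, near the 5.67% of all genes), and the median interaction was 0.02. Of the lower ones, 1 was left without any 1 of 9 libraries, all but sample 1 of vehicle at 6 h and samples 1 and 3 of vehicle at 24 h. Both chains of the interleukin 18 receptor were among the higher ones. Il18rap was at 34.4, 35.3 and 35.6 CPM with vehicle and 114, 106 and 110 CPM with TWEAK at 6 h, and at 24.7, 24.5 and 21.2 CPM and 127, 130 and 138 CPM at 24 h (interaction 0.83 ± 0.07, edgeR adjusted p = 2.89e-09). For Il18r1 the interaction was 0.68 ± 0.05 (edgeR adjusted p = 1.06e-09), and for Il1rl1, the receptor of interleukin 33, it was 0.88 ± 0.20 (edgeR adjusted p = 0.00461). Il13ra1, a chain of the interleukin 13 receptor, rose at 6 h from 24.2, 23.7 and 23.2 to 38.4, 36.5 and 39.7 CPM, and was at 23.5, 22.6 and 23.7 CPM with vehicle and 26.4, 23.4 and 26.9 CPM with TWEAK at 24 h (interaction -0.56 ± 0.08, edgeR adjusted p = 1.17e-05). Its rise had thus faded to overlapping groups. With those 3 libraries left out, 2 receptors were higher and 1 lower.

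Of 23 tested cytokines and colony-stimulating factors, 4 had a higher effect at 24 h (17.4%, against 3.24% of all genes) and 5 a lower one (21.7%, against 5.67%). Csf1, the growth factor of macrophages, rose from 110, 114 and 114 to 171, 168 and 171 CPM at 6 h and from 114, 113 and 116 to 236, 226 and 232 CPM at 24 h (interaction 0.42 ± 0.05, edgeR adjusted p = 3.96e-07). Lif, of the interleukin 6 family, behaved alike with a smaller difference (interaction 0.24 ± 0.06, edgeR adjusted p = 0.00995). Il33, an alarmin of epithelial cells, moved the other way. It was at 8.39, 9.35 and 8.6 CPM with vehicle and 4.80, 5.21 and 5.24 CPM with TWEAK at 6 h, and at 15.8, 14 and 16 CPM and 2.80, 4.38 and 2.85 CPM at 24 h. The vehicle level rose and the TWEAK level fell between the times (interaction -1.37 ± 0.185, edgeR adjusted p = 8.95e-06). Kitl, the stem cell factor, fell by 0.54 at 6 h and fell by 1.66 at 24 h (interaction -1.11 ± 0.13, edgeR adjusted p = 1.69e-06). The granulocyte factor Csf3 turned: it rose from 69.8, 75.9 and 82.5 to 95, 93.7 and 92.1 CPM at 6 h and fell from 63.2, 66.1 and 61.9 to 56.3, 57.6 and 56.9 CPM at 24 h (interaction -0.46 ± 0.07, edgeR adjusted p = 2.48e-05). The higher members numbered 2 without sample 1 of vehicle at 24 h, and 1 was higher and 4 were lower without the 3 libraries. Of 16 tested chemokines, 11 were higher with TWEAK at 6 h and 9 at 24 h. In the interaction only Cxcl16 (higher) and Cxcl5 (lower) were called, 6.25% each, against 3.24% and 5.67% of all genes. The call of Cxcl16 (effect 1.26 at 6 h and 1.44 at 24 h) was lost without any 1 of 7 libraries, all but samples 1 and 3 of vehicle and 3 of TWEAK at 6 h, and 3 of vehicle and 2 of TWEAK at 24 h (highest edgeR adjusted p = 0.124). Cxcl5, a neutrophil attractant, was at 2.14 CPM (mean) with TWEAK at 6 h and 0.267 CPM at 24 h, against 2.30 and 1.14 CPM with vehicle (interaction -1.88 ± 0.37, edgeR adjusted p = 0.000911).

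The MHC class I pathway presents peptides to T cells. Of its 23 tested members, 3 had a higher effect at 24 h (13%, against 3.24% of all genes) and 2 a lower one (8.7%, against 5.67%). The other 18 were not called. The median interaction of the list was -0.04, with 9 members above 0 and 14 below. B2m, the light chain of MHC class I, rose from 55.0, 57.8 and 53.1 to 62.0, 60.5 and 57.4 CPM at 6 h, where the groups overlapped, and from 53.8, 51.7 and 53.1 to 74.8, 74.5 and 76.2 CPM at 24 h, where they did not (interaction 0.39 ± 0.06, edgeR adjusted p = 4.6e-05). Tapbp (tapasin) followed (interaction 0.23 ± 0.05, edgeR adjusted p = 0.00292), whereas the chaperone Calr had a lower effect (interaction -0.37 ± 0.04, edgeR adjusted p = 1.69e-06). Of 8 tested leukocyte adhesion molecules, Cd47 and Icam1 had a higher and Alcam a lower effect, with a median interaction of 0.19. The call of Icam1 was lost without any 1 of 11 libraries, all but sample 3 of vehicle at 24 h (highest edgeR adjusted p = 0.15). Alcam was at 59.2 CPM with vehicle and 64.2 CPM with TWEAK at 6 h (means), and at 43.4 and 22.9 CPM at 24 h (interaction -1.03 ± 0.07, edgeR adjusted p = 3.52e-11). Of 36 tested interferon-stimulated genes, Ifitm3 and Bst2 had a higher effect and 3 a lower one (5.56% and 8.33%), near the 3.24% and 5.67% of all genes.

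Several lists of epithelial genes held members whose fall grew, and so did single genes outside them. The largest growths of a fall by the naming rule were those of Upk3b, a uroplakin, Cd53, a tetraspanin of leukocytes, Mctp1, a calcium-binding membrane protein, Sprr2g, a small proline-rich protein of squamous epithelium, and Synpr, a synaptic vesicle protein. Mctp1 was at 13.6, 11.9 and 13.3 CPM with vehicle and 10.7, 9.62 and 8.28 CPM with TWEAK at 6 h, and at 13.2, 12.6 and 12.6 CPM with vehicle and 1.42, 1.60 and 1.52 CPM with TWEAK at 24 h. The vehicle level did not move by more than its spread, while TWEAK left 8.39-fold less at 24 h (interaction -2.63 ± 0.15, edgeR adjusted p = 2.58e-12). Sprr2g fell from 9, 9.95 and 8.44 to 5.75, 4.84 and 5.34 CPM at 6 h and from 7.44, 5.90 and 8.52 to 0.906, 0.852 and 0.702 CPM at 24 h (interaction -2.39 ± 0.24, edgeR adjusted p = 6.4e-08). It belongs to a cluster of similar genes, so its reads may be shared with neighbours. Upk3b was at 1.62, 1.74 and 1.95 CPM with vehicle and 0.129, 0.125 and 0.211 CPM with TWEAK at 24 h (interaction -2.83 ± 0.41, edgeR adjusted p = 2.27e-05). Cd53 and Synpr were at or below 1.71 CPM in every sample, with interactions of -2.66 ± 0.55 and -2.33 ± 0.45.

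**Figure D2:**
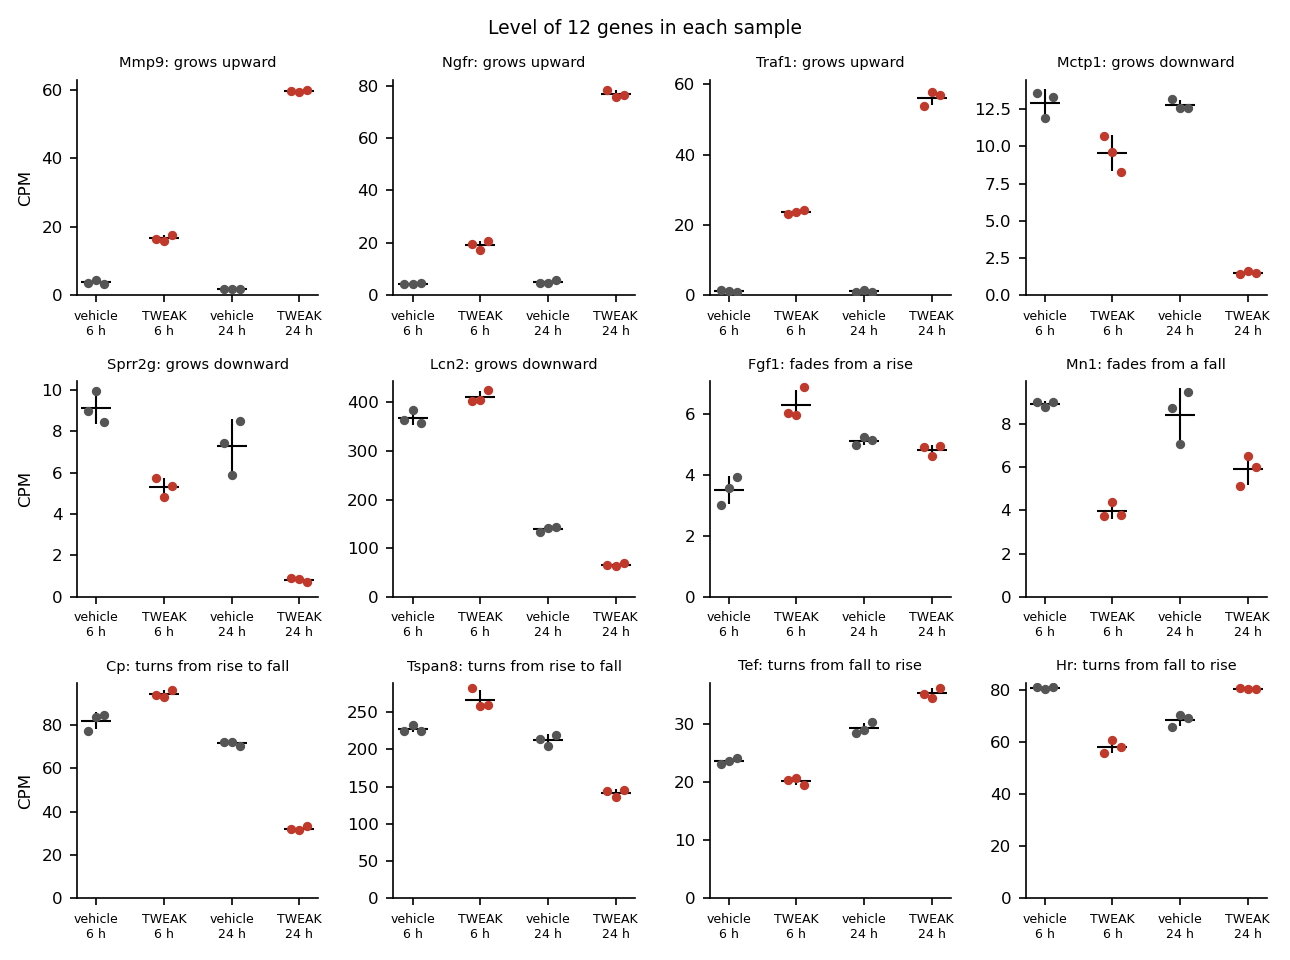
CPM of 12 genes (y axes start at 0) in the 3 vehicle (grey) and 3 TWEAK (red) samples at each time, with the mean and SD in black. TWEAK raised Mmp9, Ngfr and Traf1 further at 24 h, lowered Mctp1, Sprr2g and Lcn2 mainly at 24 h, moved Fgf1 and Mn1 mainly at 6 h, and moved Cp, Tspan8, Tef and Hr in opposite directions at the 2 times.

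The list of genes known from the distal nephron and collecting duct had the highest share of called members of the 46 lists. Most defining markers of these segments were near 0, as given above. Lists and members were chosen with earlier results of these data known, so this rank and the shares are a description. Of 21 tested members, 13 had a lower effect at 24 h (61.9%, against 5.67% of all genes) and 3 a higher one (14.3%, against 3.24%). The median interaction was -0.31. Tested against a 1.2-fold change in place of no change, 1 member was lower. The 3 became 1 without sample 1 or 2 of TWEAK at 6 h, sample 2 of vehicle at 24 h or sample 1 of TWEAK at 24 h. With TWEAK 10 were lower and 3 higher at 6 h, and 13 were lower and 5 higher at 24 h. Carbonic anhydrase 2 (Car2) was at 18.9, 18.9 and 18.3 CPM with vehicle and 14.9, 14.4 and 15.2 CPM with TWEAK at 6 h, and at 25, 27.8 and 25.5 CPM and 9.79, 8.16 and 9.12 CPM at 24 h (interaction -1.21 ± 0.10, edgeR adjusted p = 2.45e-09). The vehicle level rose with time and the TWEAK level fell. The mineralocorticoid receptor Nr3c2, the kinase Wnk4, the ubiquitin ligase Nedd4l and the potassium channel Kcnk5 were also lower, with interactions of -0.43, -0.85, -0.34 and -0.35. Sgk1, the aldosterone-induced kinase, had no call at 6 h (40.4, 32.3 and 35.9 CPM with vehicle, 35.6, 35.9 and 36.6 CPM with TWEAK) and was higher at 24 h (25.4, 26.1 and 26.2 CPM against 39.4, 39.7 and 40.4 CPM; interaction 0.63 ± 0.09, edgeR adjusted p = 2.24e-05). The chloride channel Cftr counted among the 13 by the fading of a rise: it rose from 3.66, 3.21 and 3.28 to 10.6, 9.44 and 10.6 CPM at 6 h and from 4.52, 5.85 and 5.61 to 10.7, 10.6 and 10.7 CPM at 24 h (interaction -0.56 ± 0.14, edgeR adjusted p = 0.0095). The TWEAK level was alike at the times and the vehicle level differed. Without the 3 libraries, 6 members were lower and 1 higher.

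Tight junction genes seal the space between epithelial cells. Of 20 tested, 7 had a lower effect at 24 h (35.0%, against 5.67% of all genes) and 0 a higher one (against 3.24%). The median interaction was -0.14. The scaffold Tjp1 (ZO-1) fell from 478, 414 and 444 to 340, 349 and 345 CPM at 6 h and from 446, 455 and 446 to 263, 266 and 285 CPM at 24 h (interaction -0.36 ± 0.06, edgeR adjusted p = 7.23e-05). Cldn2, the cation-permeable claudin of leaky epithelia, was at 2.82, 3.21 and 3.82 CPM with vehicle and 1.62, 1.49 and 1.15 CPM with TWEAK at 6 h, and at 5.34, 4.81 and 6.38 CPM and 1.12, 0.561 and 0.655 CPM at 24 h (interaction -1.70 ± 0.31, edgeR adjusted p = 0.000373). With those 3 libraries left out, 1 junction gene was called. Of 11 tested keratins, Krt19, Krt7 and Krt20 had a lower effect (27.3%, against 5.67% of all genes) and 0 a higher one. The other 8 were not called, among them the abundant Krt8 (interaction 0.05) and Krt18 (interaction -0.01). The median interaction of the list was -0.06. The 3 called keratins were also called without the 3 libraries. Krt19 was at 1520, 1570 and 1510 CPM with vehicle and 1200, 1210 and 1250 CPM with TWEAK at 6 h, and at 1420, 1480 and 1450 CPM and 802, 804 and 769 CPM at 24 h (interaction -0.54 ± 0.05, edgeR adjusted p = 3.22e-09). Among 37 tested renal epithelial transcription factors, 6 had a lower effect (16.2%, against 5.67% of all genes) and 4 a higher one (10.8%, against 3.24%). The lower count was 3 without sample 3 of vehicle or sample 1 of TWEAK at 6 h, and the higher count was 1 or 2 without sample 1 or 2 of any group. The lower ones included the ETS factors Ehf (interaction -0.55 ± 0.06, edgeR adjusted p = 6.4e-08) and Elf3 (interaction -0.58 ± 0.08, edgeR adjusted p = 1.09e-05), both known for epithelial differentiation. The factor Zeb1, known as a repressor of epithelial genes, rose from 2.48, 2.34 and 2.75 to 5.89, 5.98 and 5.78 CPM at 6 h and from 1.78, 2.08 and 2.19 to 11.2, 10.9 and 11.1 CPM at 24 h (interaction 1.27 ± 0.18, edgeR adjusted p = 2.01e-05). Cdh1 (E-cadherin) was higher with TWEAK by 0.08 at 6 h and lower at 24 h, where it fell by 0.11 (interaction -0.19 ± 0.04, edgeR adjusted p = 0.00201). Of 31 tested epithelial-mesenchymal transition genes, 4 had a higher (12.9%, against 3.24% of all genes) and 5 a lower effect (16.1%, against 5.67%). The list as a whole had no single direction.

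Of 14 tested antimicrobial and mucosal defence genes, 6 had a lower effect at 24 h (42.9%, against 5.67% of all genes). Pglyrp2 had a higher one (7.14%, against 3.24%), and the median interaction of the list was -0.52. Lcn2 (NGAL), an iron-scavenging protein used as a marker of tubular injury, was at 364, 384 and 357 CPM with vehicle and 403, 405 and 425 CPM with TWEAK at 6 h, a difference that did not pass the test (edgeR adjusted p = 0.0677). At 24 h it was at 134, 141 and 144 CPM with vehicle and 64.8, 63.7 and 70.4 CPM with TWEAK. The level fell with time in both treatments and fell further with TWEAK (interaction -1.23 ± 0.09, edgeR adjusted p = 4.2e-10). The membrane mucin Muc1 (interaction -1.38 ± 0.19, edgeR adjusted p = 8.08e-06) and Wfdc2 (interaction -0.42 ± 0.05, edgeR adjusted p = 1.92e-06) were lower too. Of 39 tested genes of tubular injury and repair, 15 had a lower effect at 24 h (38.5%, against 5.67% of all genes). A higher effect was called for 3 (7.69%, against 3.24%). The list as a whole was not lower: at 24 h 14 members were higher and 15 lower with TWEAK, and the median interaction was -0.01. Several of them are on the lists above. Of the others, osteopontin (Spp1) fell from 635, 644 and 634 to 499, 469 and 489 CPM at 6 h and from 507, 503 and 535 to 267, 260 and 269 CPM at 24 h (interaction -0.56 ± 0.05, edgeR adjusted p = 2.82e-08). Clusterin (Clu) had no call at 6 h and fell from 3090, 3160 and 3330 to 2180, 2220 and 2210 CPM at 24 h (interaction -0.44 ± 0.06, edgeR adjusted p = 1.97e-05). It was the 1 called of 14 tested complement-related genes (7.14%, near the 5.67% of all genes, and 2 members without sample 2 of vehicle or 3 of TWEAK at 24 h). The receptor of double-stranded RNA, Tlr3, was lower at both times and more so at 24 h, at 49.0, 50.0 and 50.4 CPM with TWEAK against 129, 128 and 134 CPM with vehicle (interaction -0.73 ± 0.06, edgeR adjusted p = 1.22e-09).

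**Figure D3:**
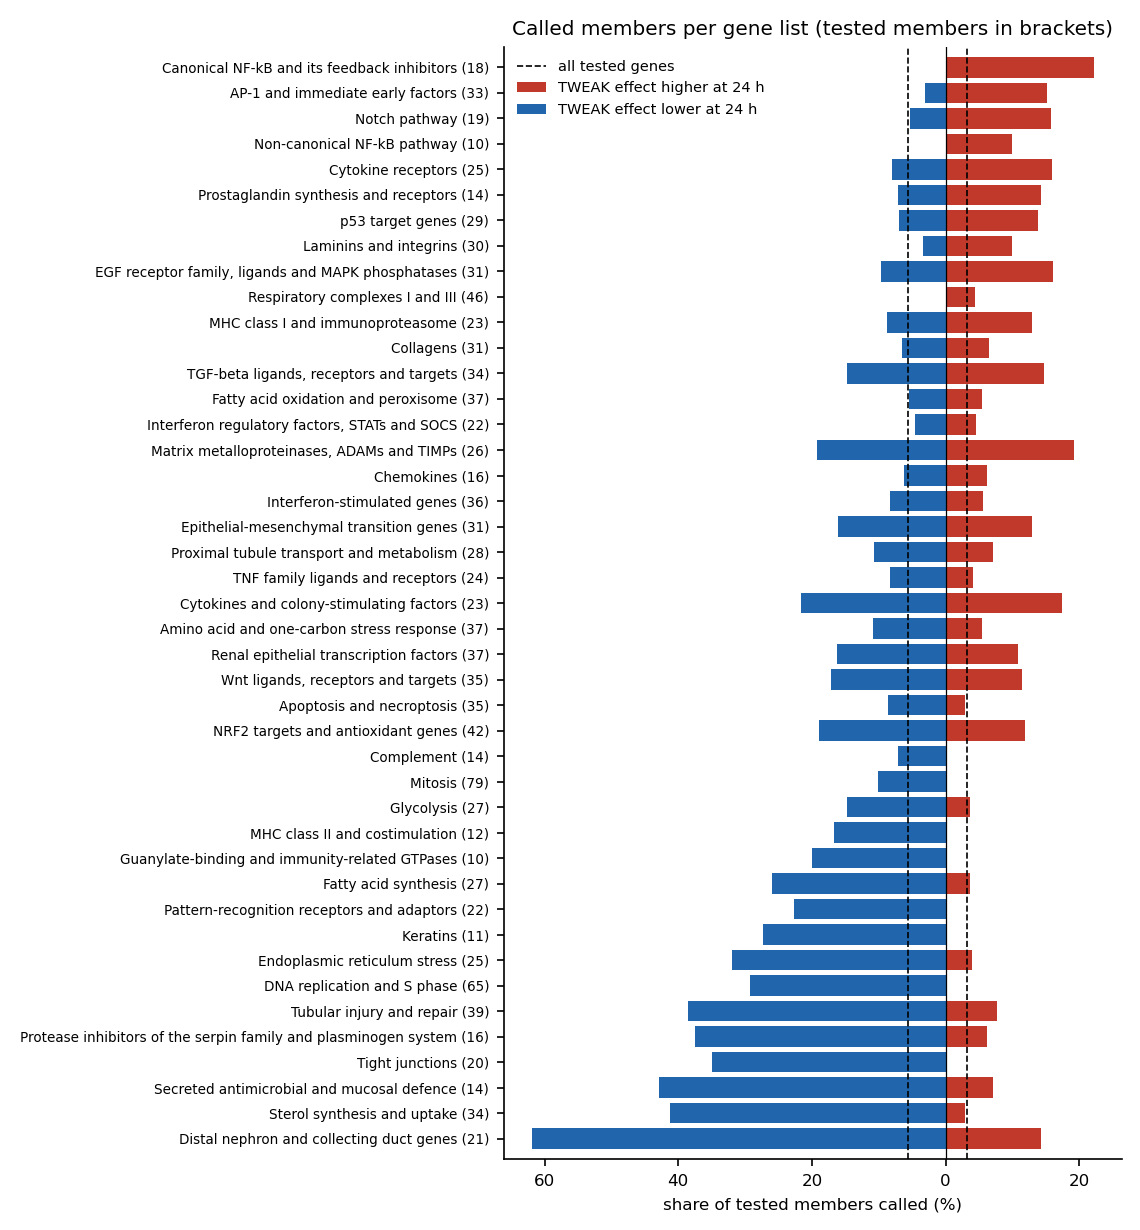
Share of the tested members of each list with at least 10 tested members (number in brackets) called with a higher (red, to the right) or lower (blue, to the left) TWEAK effect at 24 h, in percent. The dashed lines mark the shares of all tested genes, 3.24% and 5.67%. The distal nephron list reaches 61.9% to the left and the canonical NF-κB list 22.2% to the right.

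Genes of DNA replication rose with time in both treatments, and rose less with TWEAK. Between 6 h and 24 h, 61 of 65 tested replication genes rose with vehicle (15.5% of all genes rose and 14.4% fell) and 59 rose with TWEAK (17.5% of all genes rose and 17.8% fell). The median change was 0.74 with vehicle and 0.57 with TWEAK. At 6 h 3 members were higher and 5 lower with TWEAK than with vehicle, and at 24 h 1 was higher and 38 were lower (20.7% of all genes were lower). In the interaction 19 members had a lower effect at 24 h (29.2%, against 5.67%) and 0 a higher one, with a median of -0.18 and 56 of 65 members below 0. Tested against a 1.2-fold change, 2 members were lower. Rrm2, a subunit of ribonucleotide reductase, was at 64.9, 60.6 and 60.0 CPM with vehicle and 61.4, 61.6 and 62.8 CPM with TWEAK at 6 h, and at 143, 142 and 138 CPM and 113, 107 and 112 CPM at 24 h (interaction -0.36 ± 0.05, edgeR adjusted p = 2.84e-05). The licensing factor Cdc6 was at 11.5 to 13.2 CPM in all 6 samples at 6 h, and at 21.7, 20.9 and 22.3 CPM with vehicle and 14.4, 13.8 and 13.5 CPM with TWEAK at 24 h (interaction -0.62 ± 0.10, edgeR adjusted p = 5.81e-05). E2f8, a repressor of the E2F family, was lower at both times and more so at 24 h (interaction -0.44 ± 0.06, edgeR adjusted p = 4.63e-06). The helicase subunits Mcm3, Mcm4 and Mcm5 had interactions of -0.26, -0.29 and -0.24. Of 79 tested mitosis genes 77 rose with time with vehicle and 75 with TWEAK, and at 24 h 50 were lower with TWEAK than with vehicle, against 20.7% of all genes. In the interaction 8 were called lower (10.1%, against 5.67% of all genes) and 0 higher (against 3.24%). That count moved between 3 (without sample 2 of TWEAK at 24 h) and 14 (without sample 1 of vehicle at 6 h), and was 4 or 5 without any 1 of 7 other libraries, all but samples 1 and 3 of TWEAK and sample 3 of vehicle at 24 h. Topoisomerase Top2a was called in all of these (interaction -0.26 ± 0.06, edgeR adjusted p = 0.00555). Without the 3 libraries with departing islet reads, 8 replication genes and 1 mitosis gene were called lower.

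The E2F motif, written TTTCGCGC or TTTGGCGC on either strand, was present in the 250 upstream bases of 158 of the 11228 matched genes (1.41%). Among the classes it was present for 7 of 561 matched genes that grew downward and 4 of 318 that grew upward. Both shares were below that of all matched genes. Of the matched replication genes, 8 of 53 had it (15.1%). The matches in 3 of the called members are shown for comparison with the κB stretches above, at chr8:75109345-75109374 (plus strand) for Mcm5, chr17:56304117-56304146 (plus) for Uhrf1 and chr9:20952824-20952853 (minus) for Dnmt1, with the match in capitals. In Mcm5 a match on the other strand overlaps it.
Mcm5: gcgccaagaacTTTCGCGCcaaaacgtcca
Uhrf1: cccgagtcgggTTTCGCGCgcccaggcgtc
Dnmt1: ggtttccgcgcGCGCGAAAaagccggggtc

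Of 34 tested genes of sterol synthesis and uptake, 20 were lower with TWEAK at 6 h and 28 at 24 h. In the interaction 14 had a lower effect at 24 h (41.2%, against 5.67% of all genes). Npc1, which exports cholesterol from lysosomes, was the 1 with a higher effect (2.94%, near the 3.24% of all genes). The median interaction was -0.20, and 1 member was lower when tested against a 1.2-fold change. The median change with time was 0.28 with vehicle and 0.08 with TWEAK. Lss, which closes the sterol ring to lanosterol, was at 85.5, 82.3 and 81.7 CPM with vehicle and 65.4, 67.7 and 67.6 CPM with TWEAK at 6 h, and at 111, 115 and 118 CPM and 63.9, 66.4 and 69.0 CPM at 24 h (interaction -0.47 ± 0.05, edgeR adjusted p = 4.19e-07). The vehicle level rose with time and the TWEAK level stayed. Of 27 tested fatty acid synthesis genes, 12 were lower and 1 higher with TWEAK at 6 h and 18 were lower and 2 higher at 24 h. In the interaction 7 had a lower effect (25.9%, against 5.67% of all genes) and 1 a higher one (3.7%, near the 3.24% of all genes). The higher call was lost without sample 2 or 3 of vehicle or 1 of TWEAK at 6 h. It was also lost without sample 1 or 3 of either treatment at 24 h. The desaturase Scd1 was at 8.68, 9.87 and 8.33 CPM with vehicle and 4.14, 3.26 and 3.70 CPM with TWEAK at 24 h, and its difference at 6 h did not pass the test (interaction -0.98 ± 0.17, edgeR adjusted p = 0.000158). With those 3 libraries left out, 7 sterol genes and 4 fatty acid genes were called lower. Of 46 tested subunits and assembly genes of respiratory complexes I and III, 2 had a higher effect (4.35%, near the 3.24% of all genes) and 0 a lower one (against 5.67%). Their median interaction was 0.02. The 2 became 1 or 0 without sample 2 of any group, sample 1 of TWEAK at 6 h or sample 1 of either treatment at 24 h.

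**Figure D4:**
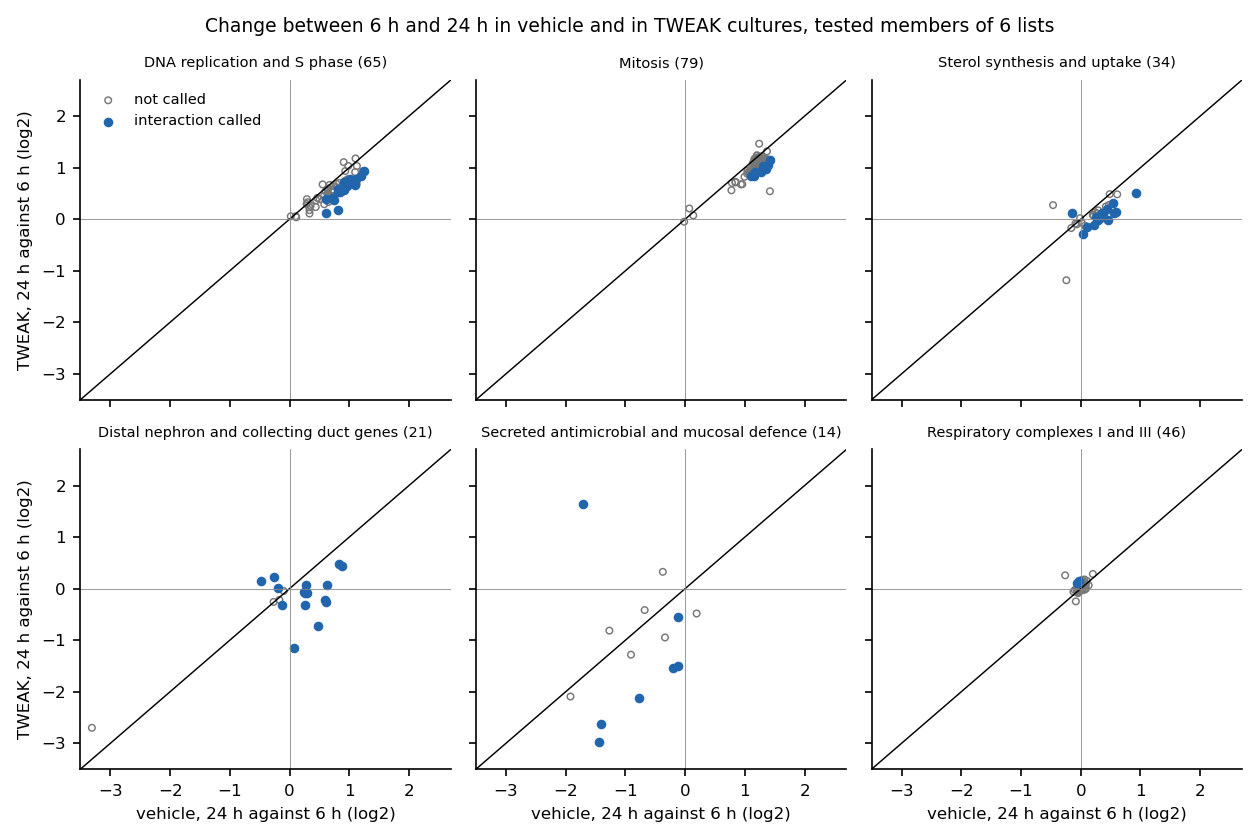
Change from 6 h to 24 h with vehicle (x axis) and with TWEAK (y axis), as log2 fold changes, for the tested members of 6 lists, with genes called in the interaction filled. Points below the diagonal rose less or fell more with TWEAK: replication, mitosis and sterol genes lie to the right of 0 and mostly below the diagonal, while the 46 respiratory genes sit around 0.

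Stress response genes were divided. Of 25 tested genes of endoplasmic reticulum stress, 8 had a lower effect at 24 h (32.0%, against 5.67% of all genes) and 1 a higher one (4.0%, near the 3.24% of all genes). The chaperone Hspa5 (BiP) rose from 793, 800 and 754 to 891, 836 and 884 CPM at 6 h, and at 24 h was at 601, 580 and 578 CPM with vehicle and 552, 544 and 572 CPM with TWEAK (interaction -0.23 ± 0.05, edgeR adjusted p = 0.00125). Ppp1r15a, the stress-induced phosphatase subunit, was the member with a higher effect (interaction 0.36 ± 0.07, edgeR adjusted p = 0.00142). The 8 lower members became 4 without sample 3 of vehicle at 6 h or sample 1 of vehicle at 24 h, 5 without sample 3 of vehicle or sample 2 of TWEAK at 24 h, and 4 without the 3 libraries. Of 42 tested NRF2 targets and antioxidant genes, 8 had a lower effect (19.0%, against 5.67% of all genes) and 5 a higher one (11.9%, against 3.24%). The extracellular peroxidase Gpx3 had no call at 6 h and fell from 552, 580 and 582 to 304, 301 and 312 CPM at 24 h (interaction -0.83 ± 0.07, edgeR adjusted p = 1.06e-09). The glutathione synthesis enzyme Gclc was lower as well (interaction -0.42 ± 0.06, edgeR adjusted p = 3.02e-05), whereas heme oxygenase Hmox1 (interaction 0.36 ± 0.07, edgeR adjusted p = 0.000967) and the cystine transporter Slc7a11 (interaction 0.43 ± 0.11, edgeR adjusted p = 0.012) were higher. Members of one antioxidant list thus moved both ways. Of 33 tested AP-1 and immediate early factors, 26 fell with time with vehicle (14.4% of all genes) and 21 with TWEAK (17.8% of all genes). A higher effect at 24 h was called for 5 (15.2%, against 3.24% of all genes) and a lower one for Egr1 (3.03%, against 5.67%). Myc rose by 0.41 at 6 h and by 0.66 at 24 h (interaction 0.25 ± 0.05, edgeR adjusted p = 0.000875). The 5 became 2 without sample 1 of TWEAK at 6 h and 1 without the 3 libraries.

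Among the genes whose rise faded, Fgf1, a broad fibroblast growth factor, rose from 3.02, 3.59 and 3.94 to 6.04, 5.98 and 6.88 CPM at 6 h, and at 24 h was at 4.98, 5.26 and 5.14 CPM with vehicle and 4.92, 4.63 and 4.94 CPM with TWEAK (interaction -0.90 ± 0.17, edgeR adjusted p = 0.000649). The tetraspanin Tspan2 rose from 2.01, 2.91 and 2.77 to 5.19, 4.60 and 4.66 CPM at 6 h and the groups overlapped at 24 h (interaction -1.12 ± 0.23, edgeR adjusted p = 0.00146). The remaining genes named by the rule were thin. The call of the predicted gene Gm5106 (interaction -0.90) was lost without sample 1 of vehicle at 24 h (edgeR adjusted p = 0.0862). That of Papss2, which makes the sulfate donor of the cell (interaction -0.87), was lost without any 1 of 8 libraries, namely samples 1 and 3 at 6 h in either treatment, samples 1 and 2 at 24 h in either treatment (highest edgeR adjusted p = 0.151). That of Tgtp1, an interferon-induced GTPase with a near-identical neighbour, was lost without any 1 of 7 libraries, namely samples 1 and 3 of vehicle at each time, sample 3 of TWEAK at 6 h and samples 2 and 3 of TWEAK at 24 h (highest edgeR adjusted p = 0.083). In the plasminogen system the activators urokinase (Plau) and tissue plasminogen activator (Plat) faded. Plau rose from 695, 701 and 676 to 967, 922 and 973 CPM at 6 h and from 839, 816 and 821 to 916, 906 and 928 CPM at 24 h (interaction -0.31 ± 0.04, edgeR adjusted p = 4.72e-06). Plat rose by 0.58 at 6 h and by 0.29 at 24 h (interaction -0.29 ± 0.05, edgeR adjusted p = 0.000407). Of 16 tested genes of the serpin family and plasminogen system, 6 had a lower effect (37.5%, against 5.67% of all genes) and 1 a higher one (6.25%, against 3.24%). Samhd1, a nucleotide hydrolase of antiviral defence, rose by 0.77 at 6 h and by 0.41 at 24 h (interaction -0.35 ± 0.06, edgeR adjusted p = 0.000114).

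A fall that faded was smaller in size. Mn1, a transcriptional coregulator, fell from 9, 8.78 and 9.01 to 3.74, 4.37 and 3.78 CPM at 6 h and from 8.70, 7.04 and 9.47 to 5.13, 6.52 and 6.01 CPM at 24 h (interaction 0.66 ± 0.15, edgeR adjusted p = 0.00337). Hilpda, a hypoxia-inducible protein of lipid droplets, fell from 42.1, 46.2 and 39.6 to 27.0, 28.3 and 30.6 CPM at 6 h, and the groups overlapped at 24 h (interaction 0.55 ± 0.09, edgeR adjusted p = 0.0001). Lef1, a nuclear effector of Wnt signaling, fell by 0.38 at 6 h and was at 7.26, 6.70 and 6.85 CPM with vehicle and 8.24, 8.16 and 8 CPM with TWEAK at 24 h, a difference that did not pass the test (edgeR adjusted p = 0.0705; interaction 0.60 ± 0.13, edgeR adjusted p = 0.00253). The cytoskeletal protein Gas7 fell by 0.59 at 6 h and had an effect of -0.01 at 24 h. Hdac9, a class II histone deacetylase, lost its call without sample 1 of TWEAK at 6 h, sample 1 of vehicle at 24 h or sample 2 of TWEAK at 24 h (interaction 0.57, highest edgeR adjusted p = 0.0732).

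The 28 and 14 genes whose effect turned were defined by a call at each time, with opposite signs. Ceruloplasmin (Cp), a ferroxidase that carries copper, rose from 77.4, 83.9 and 84.8 to 94.0, 92.9 and 96.2 CPM at 6 h and fell from 72.3, 72.4 and 70.5 to 31.9, 31.4 and 33.4 CPM at 24 h (interaction -1.35 ± 0.09, edgeR adjusted p = 3.49e-11). The groups did not overlap at either time, which the naming rule required. Tspan8, a tetraspanin of epithelia, rose from 225, 233 and 225 to 282, 258 and 260 CPM and then fell from 214, 204 and 220 to 144, 136 and 145 CPM (interaction -0.81 ± 0.06, edgeR adjusted p = 4.65e-10). Cytip, a binding partner of cytohesin, had the largest interaction of the class at a low level: it rose from 0.571, 0.625 and 0.741 to 1.27, 1.21 and 1.12 CPM and fell from 1.39, 1.54 and 1.62 to 0.777, 0.769 and 0.795 CPM (interaction -1.80 ± 0.29, edgeR adjusted p = 0.000101). Here the TWEAK level fell and the vehicle level rose between the times. The glucose and mannose transporter Slc5a9 (interaction -1.33 ± 0.25) and the thioredoxin-like Nxnl2 (interaction -0.86 ± 0.18) turned in the same direction, and so did Wnt4, a Wnt ligand of the renal tubule (interaction -0.72 ± 0.145, edgeR adjusted p = 0.00127).

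In the other direction, the corepressor Hr (hairless) fell from 81.2, 80.2 and 81.1 to 55.8, 60.8 and 58.2 CPM at 6 h and rose from 65.7, 70.3 and 69.2 to 80.6, 80.2 and 80.3 CPM at 24 h (interaction 0.71 ± 0.06, edgeR adjusted p = 4.99e-09). The RNA-editing deaminase Adarb1 (interaction 0.70 ± 0.10, edgeR adjusted p = 3.03e-05), the semaphorin Sema4f (interaction 0.55 ± 0.08, edgeR adjusted p = 1.17e-05) and Tef, a factor of the clock-controlled PAR family (interaction 0.50 ± 0.07, edgeR adjusted p = 2.82e-05), turned likewise. Plin2, a coat protein of lipid droplets, was at 388, 379 and 378 CPM with vehicle and 320, 312 and 327 CPM with TWEAK at 6 h, and at 262, 252 and 265 CPM and 298, 280 and 296 CPM at 24 h (interaction 0.42 ± 0.05, edgeR adjusted p = 1.63e-06).

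**Figure D5:**
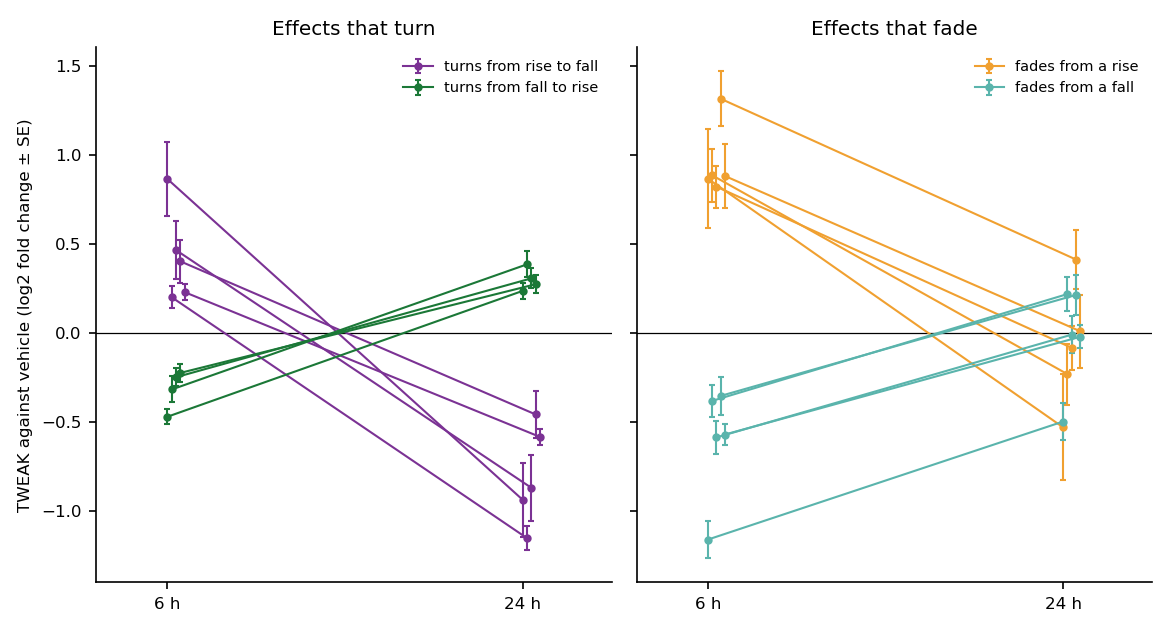
TWEAK against vehicle (log2 fold change with SE) at 6 h and 24 h for 19 genes named by the rule whose effect turned (left) or faded (right), with 1 line per gene. Lines of turning genes cross 0 between the times, such as Cp from 0.20 to -1.15 and Hr from -0.47 to 0.24; in the right panel Mn1 ends at -0.50 and the other lines that start below 0 end between -0.02 and 0.22.

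The same interaction was computed with the cultures that received TWEAK with NIK SMI1 in place of those with TWEAK alone. The vehicle samples are shared, so the values are set side by side and not compared as independent results. In all 3 samples with NIK SMI1 at 24 h the islet sum was 0.349 to 0.595 CPM, against 22.7 to 24.9 CPM in those at 6 h, and its part in these values was not tested. For the replication list the median interaction was -0.18 without and 0.04 with the inhibitor, and for the mitosis list -0.17 and 0.01. For the distal nephron list it was -0.31 and -0.08, for sterol synthesis -0.20 and -0.09, for tight junctions -0.14 and -0.09, and for antimicrobial genes -0.52 and -0.27. The median over the genes that grew upward was 0.28 and 0.13, and over those that grew downward -0.41 and -0.20, which the choice of these genes by the first value affects. Of single genes, Mmp9 had 2.88 and 1.89, Ngfr 1.88 and 1.30, Il18r1 0.68 and 0.74, Lcn2 -1.23 and -1.22, Cp -1.35 and -0.97, Relb 0.34 and -0.03, and Cdc6 -0.62 and 0.01.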

How the data were processed

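Primary mouse renal epithelial cells were profiled by RNASeq in 18 samples, of which 12 enter the interaction. The authors ran HTSeqGenie on single-end reads, with GSNAP as the aligner and NCBI build 37 as the mouse genome. The deposited counts are uniquely aligned reads in the exons of each of 36528 Entrez genes, without normalization. The deposited files also give RPKM values made by the authors, scaled by exonic width and total reads, which entered no test. Labels and methods differ on sequencer, read length and RNA input. Counting is not stated to use strand, and the kit does not mark it, so overlapping antisense genes cannot be told apart.

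Symbols came from RefSeq (GRCm38.p6), which matched 31049 identifiers, and no position was converted. Genes with more than 10 reads in at least 4 samples were tested in edgeR 4.0.16 (TMM, estimateDisp, glmQLFit, glmQLFTest; R 4.3.3) with the 18 samples as 6 groups. SEs come from the F statistic. Libraries of 18040966 to 51956444 reads set the precision. The scripts were tested on simulated data.

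The rule for named genes took, in each of the 6 classes, the 5 genes with the largest absolute interaction, among genes with a symbol, a mean of at least 1 CPM in 1 group and non-overlapping samples where the class needs a call, islet, acinar and Y-linked markers excepted. A gene so chosen, and a few other results, are not reported here. Other genes come from 46 lists, called members of lowest adjusted p preferred, or are markers. The members and lists were chosen with earlier results of these data known. Alternatives were DESeq2 1.42.0, its size factors, other filters, glmTreat, only the 12 samples, thinned libraries, an unadjusted threshold and leaving out samples.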

Additional observations from a re-analysis of the deposited data

Results flagged for a closer look

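The TWEAK effect differed between the times, by the interaction test in edgeR, for 503 genes with a higher and 880 genes with a lower effect at 24 h. Among the genes named by the rule, 9 came from the classes of genes whose effect turned between 6 h and 24 h. Opposite direction, a call at both times and samples without overlap were conditions for that choice, not further results. From a rise to a fall, the interaction was -1.80 for Cytip, -1.35 for Cp, -1.33 for Slc5a9, -0.86 for Nxnl2 and -0.81 for Tspan8. From a fall to a rise, it was 0.71 for Hr, 0.70 for Adarb1, 0.55 for Sema4f and 0.50 for Tef. Groups held 3 samples, too few for a test of single outlying samples.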

How the results depend on the processing

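No called gene changed sign under any alternative. DESeq2 called 1400 genes and kept 96.4% of the 1383 calls, DESeq2's size factors kept 99.2%, the fit on only the 12 samples 96.5%, no filter on low counts 90.5% and libraries thinned to the same depth 69.9%. Tested against a 1.2-fold change with glmTreat, 78 genes were called higher and 238 lower, with 70 growing upward, 212 growing downward, 10 fading from a rise, 1 fading from a fall, 16 turning from a rise and 7 from a fall. With glmTreat, the lower members called were 1 of the distal nephron list, 2 of replication, 1 of sterol synthesis and 1 of tight junctions. They were 0 for mitosis and for endoplasmic reticulum stress, 5 for tubular injury, 5 for antioxidant genes and 4 for antimicrobial genes. At an unadjusted p below 0.01, 93 genes faded from a fall.

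With only sample 2 left of TWEAK at 24 h (the others hold more islet reads), 251 genes were called higher, 205 grew upward, 38 faded from a fall and 6 turned from a fall to a rise. Without the 3 TWEAK samples whose islet reads depart, an alternative chosen after seeing the data, 171 genes were called higher and 411 lower, with 145 growing upward, 360 growing downward, 43 fading from a rise, 18 fading from a fall, 8 turning from a rise and 7 from a fall. In both, the lone sample is assumed to vary like the other groups.

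Leaving out 1 library at a time gave 340 to 518 genes higher, 708 to 1031 lower, 287 to 431 growing upward, 600 to 852 growing downward, 74 to 127 fading from a rise, 37 to 67 fading from a fall, 22 to 36 turning from a rise and 10 to 16 from a fall. No paired analysis was possible because the labels carry no replicate numbers. The lowest level the depth allows was 0.0577 to 0.152 CPM, so differences below it were not detectable.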
